A study of Danio rerio with 14 samples.

Results

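The sarcomere genes comprised every probe on the array whose gene symbol begins with myh, smyhc, vmhc, myl, tnnc, tnni, tnnt, tpm or mybpc, or is acta1a, acta1b, actc1a or actc1b, without the kinases and ligases named mylk and mylip. This rule uses names alone and found 92 of the 17950 probes, belonging to 45 of the 8830 gene symbols. The 92 probes cover myosin heavy and light chains, troponins, tropomyosins, myosin binding proteins C and muscle actins. The prefixes myh and myl also brought in 14 probes of non-muscle and smooth muscle myosins, which are given separately.

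Eyeballs were dissected from wild-type AB zebrafish larvae, and the eyes of 10 larvae from 1 plate of 24 eggs made 1 RNA sample. The TBBPA 8 dpf group was raised in medium with TBBPA (tetrabromobisphenol A, used as a flame retardant) at 200 µg/L for 5 days after fertilization and then held in clean water for 3 days, until 8 days post fertilization (dpf). The control 8 dpf group had the same schedule with 0 µg/L TBBPA, and the TBBPA 5 dpf and control 5 dpf groups were sampled at the end of exposure. Per the methods of the study, the control medium held the solvent dimethyl sulfoxide. Each of the 4 groups had 3 samples, and pairs of samples were hybridised to 14 two-colour Agilent arrays, 4 comparing TBBPA with control at 8 dpf, 6 at 5 dpf and 4 linking the ages.

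The sarcomere is the contractile unit of striated muscle, in which myosin motors of the thick filament pull on actin of the thin filament. Tropomyosin lies along the thin filament and, with the troponin complex, lets contraction start when calcium binds troponin C. Slow, fast and cardiac fibres build their sarcomeres from different isoforms of most of these proteins. In an eye sample the extraocular muscles, which turn the eyeball and insert on its outer wall, are a known source of skeletal muscle transcripts, while the retina and lens hold no sarcomeres.

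The level of a probe in a sample is given here as a log2 value relative to the mean of the 12 samples, estimated from all arrays, so that 0 is the average sample and 1 is a doubling. A two-colour ratio holds no absolute level, so neither the amount of muscle RNA in an eye nor the level of one gene against another can be read from it. In whole eyes, fewer muscle cells and less RNA per muscle cell cannot be told apart. Several of these genes are close copies of each other, among them the muscle actins, myhz1.1, myhz1.2, myhz2 and myhc4, which neighbour each other in the RefSeq annotation, and smyhc1 and smyhc3, and a probe may also bind the RNA of a copy. Differences were tested with limma over all probes, and a probe passed at an adjusted p (Benjamini-Hochberg) under 0.05. These p take arrays as replicates. With plates as the unit, 0 members passed in either treatment comparison, where 1 of all 17950 probes passed at 5 dpf and 0 at 8 dpf. At an unadjusted p under 0.05 that limma fit had 18 members higher and 0 lower at 5 dpf, against 4.32% of all probes higher and 2.86% lower, and 0 higher and 8 lower at 8 dpf, against 2.42% and 2.49%. An exact permutation test of 3 against 3 samples could not go below 0.1.

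**Figure D1:**
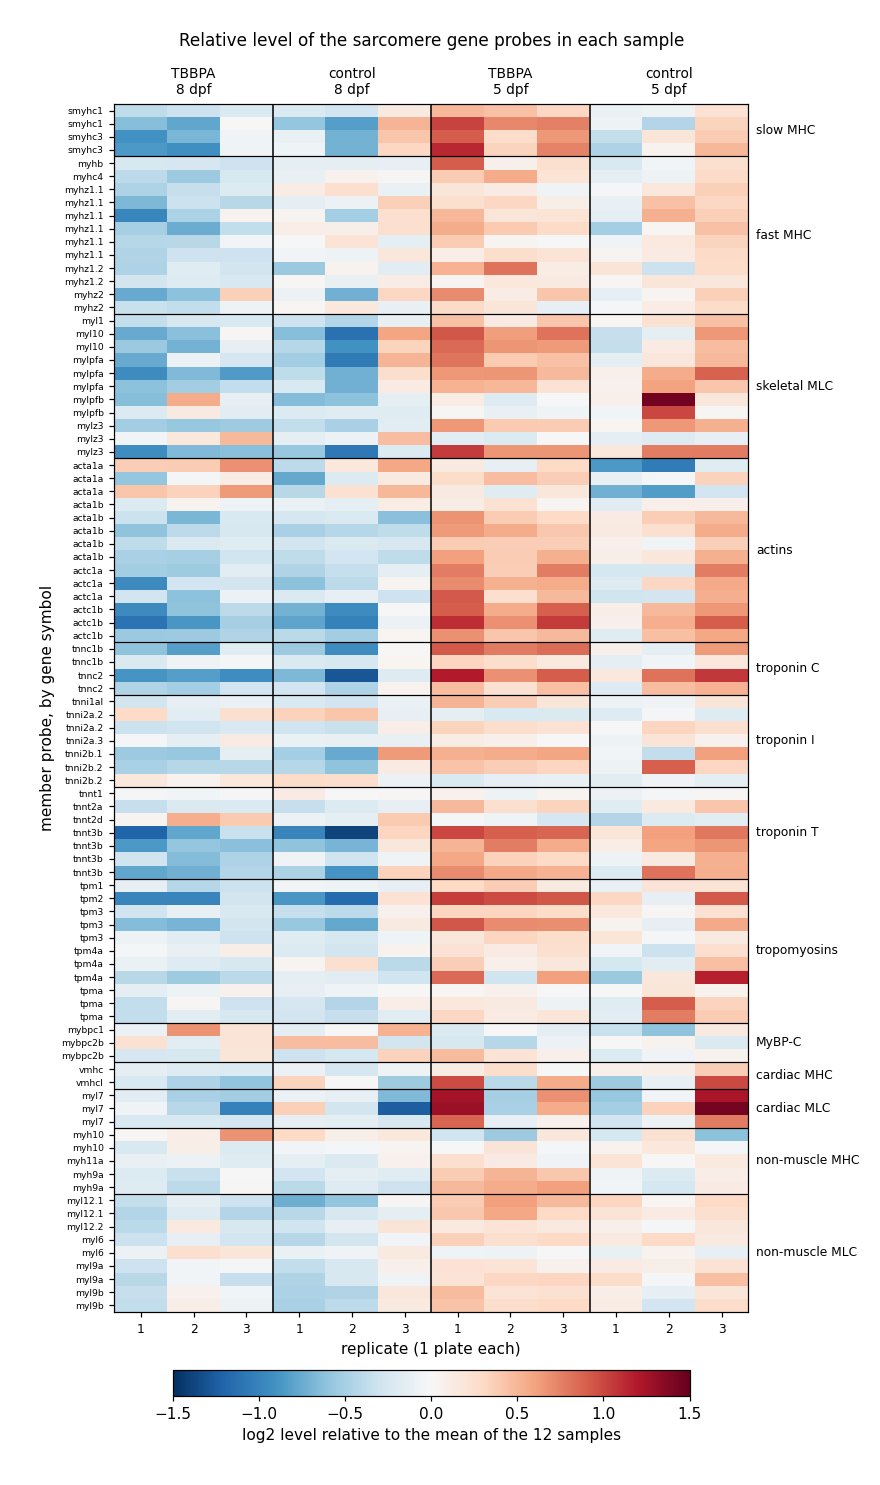
Each row is 1 of the 92 member probes, labelled with its gene symbol and grouped by role, and each column is 1 sample, with colour giving the log2 level relative to the mean of the 12 samples (MHC and MLC, myosin heavy and light chains, and MyBP-C, myosin binding protein C). Most rows were high in the TBBPA 5 dpf samples, and control 5 dpf replicate 1 was lower than control 5 dpf replicate 3 in most roles.

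At the end of exposure, 27 of the 92 probes rose and 0 fell in TBBPA eyes, against 4.23% of all probes higher and 2.84% lower. At an unadjusted p under 0.05, 47 were higher and 1 lower, against 11.8% of all probes higher and 10.6% lower. The median difference over the 92 probes was 0.26 on the log2 scale, and over all probes it was -0.0016. The 27 probes belonged to 17 genes, with the slow myosin heavy chains, the muscle actins, myl10, tnnc1b and tpm3 showing the larger differences. 2 of them, of acta1a and smyhc1, also passed the study's fold threshold of 0.75, against 0.357% of all probes. For 18 of the 92 probes all 3 TBBPA samples lay above all 3 control samples, against 8.54% of all probes. TBBPA and control samples hybridised to the same array share its errors, so this count does not rest on independent plates.

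The 3 control plates did not behave alike. The mean level over the 92 probes was 0.46, 0.26 and 0.32 in TBBPA 5 dpf replicates 1 to 3, and -0.088, 0.13 and 0.36 in control 5 dpf replicates 1 to 3. Of the 27 probes that rose, 14 had control replicate 3 at or above the lowest TBBPA sample, and 0 had control replicate 1 or 2 there. Without control replicate 1 at 5 dpf, 0 members passed and 49 of all probes did, and the median over the 92 probes was 0.088. Without control replicate 2, 6 members passed, without TBBPA replicate 1, 4, and without TBBPA replicate 2, 7. Without control replicate 3, 38 members passed, including all 27. With the RNA sample as a random effect beside a dye effect, 11 of the 27 passed, and on the 6 arrays at 5 dpf alone 10 of the 27 did.

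All 4 probes of the slow skeletal myosin heavy chains rose at 5 dpf, against 4.23% of all probes. smyhc1, a motor of slow fibres, was measured by 2 probes, and probe A_15_P632491 stood at 1.01, 0.71 and 0.76 in TBBPA eyes and -0.073, -0.44 and 0.34 in control eyes. The groups did not overlap, and the difference was 0.84 ± 0.16 (SE, adjusted p = 0.00591, limma), or 1.79-fold. The other smyhc1 probe, A_15_P115480, differed by 0.42 (adjusted p = 0.00911, limma), again with all TBBPA samples above the controls. smyhc3, another slow heavy chain, stood at 1.13, 0.34 and 0.75 in TBBPA eyes and -0.46, 0.051 and 0.49 in control eyes on probe A_15_P635961. The difference was 0.73 ± 0.15 (SE, adjusted p = 0.0101, limma), although control replicate 3 lay above TBBPA replicate 2.

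Of the 12 probes of fast skeletal myosin heavy chains 2 rose, against 4.23% of all probes. At an unadjusted p under 0.05, 4 were higher and 0 lower, against 11.8% and 10.6% of all probes. The 2 were the single probe of myhb (0.53) and 1 of 6 probes of myhz1.1 (A_15_P655096, 0.49). The other 5 myhz1.1 probes differed by -0.036 to 0.063, while myhc4 differed by 0.37, myhz1.2 by 0.47 and -0.011, and myhz2 by 0.27 and 0.033, none of which passed. The samples of the groups overlapped for all 12 probes.

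Among the skeletal myosin light chains, which bind the neck of the myosin head, 2 of 11 probes rose, against 4.23% of all probes. Both were of myl10, a regulatory light chain. Probe A_15_P262196 stood at 0.93, 0.62 and 0.81 in TBBPA eyes and -0.35, -0.13 and 0.65 in control eyes. Control replicate 3 lay within the TBBPA range, and the difference was 0.73 ± 0.18 (SE, adjusted p = 0.0247, limma). The second myl10 probe differed by 0.64. The fast light chains mylpfa, mylz3 and myl1 differed by 0.00 to 0.43 over 7 probes, and mylpfb by -0.46 and -0.29, and none of these passed.

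Muscle actin, the core of the thin filament, rose on 9 of 14 probes, against 4.23% of all probes, and all 14 differences were above 0. acta1a, a skeletal muscle actin, gave the largest difference of the 92 probes. On probe A_15_P117794 it stood at 0.13, -0.12 and 0.30 in TBBPA eyes and -0.86, -1.05 and -0.18 in control eyes. All 3 TBBPA samples were above the controls and the TBBPA sample was brighter on 6 of 6 arrays, with a difference of 0.84 ± 0.13 (SE, adjusted p = 0.00199, limma). A second acta1a probe, A_15_P662937, differed by 0.71 (adjusted p = 0.00268, limma), and the remaining one, A_15_P628456, by 0.34 without passing.

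actc1a, named as a cardiac muscle actin, stood at 0.92, 0.25 and 0.49 in TBBPA eyes and -0.29, -0.28 and 0.55 in control eyes on probe A_15_P677086. Control replicate 3 lay above TBBPA replicates 2 and 3, so the groups overlapped, with a difference of 0.62 ± 0.13 (SE, adjusted p = 0.0118, limma). Its other probes differed by 0.60, which passed, and 0.46, which did not. For actc1b 2 of 3 probes passed (0.41 and 0.48), and for acta1b 3 of 5 (0.25 to 0.28).

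In the troponin complex, 4 of 18 probes rose, against 4.23% of all probes. Troponin C binds calcium, and tnnc1b, its slow skeletal form, rose on both probes. Probe A_15_P108824 stood at 0.92, 0.77 and 0.84 in TBBPA eyes and 0.079, -0.15 and 0.64 in control eyes. The groups did not overlap, and the difference was 0.61 ± 0.13 (SE, adjusted p = 0.0117, limma), with 0.28 on the other probe. tnnc2, the fast form, differed by 0.32 and 0.16 on 2 probes and did not pass. Of troponin I, the inhibitory subunit, only tnni1al rose (0.37), and the 6 probes of the fast genes tnni2a.2, tnni2a.3, tnni2b.1 and tnni2b.2 differed by -0.067 to 0.46 without passing. Of troponin T, which ties the complex to tropomyosin, only tnnt2a rose (0.30), while the 4 probes of the fast gene tnnt3b differed by 0.19 to 0.40, tnnt1 by 0.043 and tnnt2d by 0.20 without passing.

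Of the 11 tropomyosin probes 1 passed, a probe of tpm3, against 4.23% of all probes higher. At an unadjusted p under 0.05, 7 of the 11 were higher and 0 lower, against 11.8% and 10.6% of all probes. Probe A_15_P113180 stood at 0.93, 0.71 and 0.69 in TBBPA eyes and 0.049, -0.13 and 0.57 in control eyes. All TBBPA samples were higher, and the difference was 0.61 ± 0.12 (SE, adjusted p = 0.00787, limma), whereas the other tpm3 probes differed by 0.17 and 0.14. The single probe of tpm2 differed by 0.56, with all TBBPA samples above the controls (adjusted p = 0.0721, limma). tpm1 differed by 0.20, the 3 probes of tpm4a by 0.21 to 0.30, and those of tpma, a fast skeletal tropomyosin, by -0.19 to -0.036. Myosin binding protein C, which steadies the thick filament, rose on 1 of 3 probes, of mybpc2b (A_15_P756682, 0.35). The other mybpc2b probe differed by -0.23 and mybpc1 by 0.19.

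**Figure D2:**
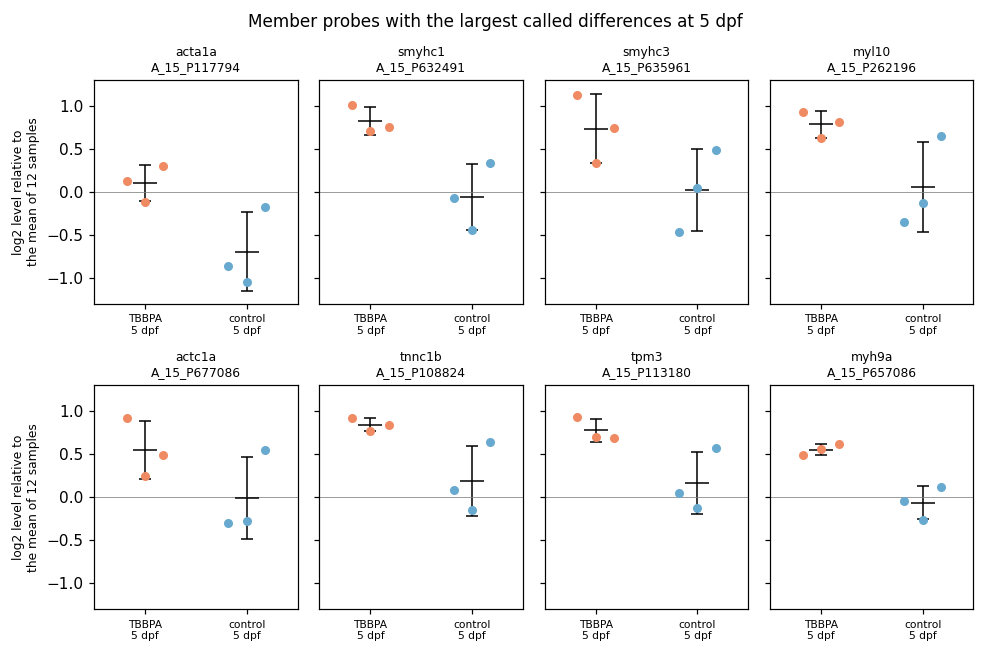
Points are the 3 TBBPA and 3 control samples at 5 dpf for the 8 member genes with the largest differences that passed, on the log2 level relative to the mean of the 12 samples, with the mean and SD as bars. Control replicate 3, the right-hand control point, was the highest control sample in all 8 panels.

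The cardiac myosins, 2 heavy chain and 3 light chain probes, did not pass at 5 dpf, and 0 of the 5 had an unadjusted p under 0.05. They differed by -0.053 for vmhc, 0.42 for vmhcl and 0.50, 0.29 and 0.28 for myl7, with overlapping groups. Among the 14 probes of non-muscle and smooth muscle myosins, 4 rose, against 4.23% of all probes. Both probes of myh9a, a non-muscle myosin heavy chain of many cell types, rose, and probe A_15_P657086 stood at 0.49, 0.56 and 0.62 in TBBPA eyes and -0.041, -0.26 and 0.12 in control eyes. The groups did not overlap, with a difference of 0.59 ± 0.083 (SE, adjusted p = 0.00115, limma) and 0.46 on the second probe. One probe each of the light chains myl12.1 (0.26) and myl9b (0.32) rose, while myl6, myl9a, myl12.2, myh10 and the smooth muscle gene myh11a did not pass. With these 14 probes left out, 23 members of the 78 that remained had risen.

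Probes were also set side by side by fibre type, an arrangement made after the values were seen and given without a test. The 7 genes named for slow fibres in zebrafish or mammals were smyhc1, smyhc3, tnnc1b, tpm3, tnni1al, tnnt1 and mybpc1. RefSeq now names tnni1al as tnni4b.2 and tnnt1 as tnnt2c, so their place here rests on the older symbols. Of the 12 slow probes 8 rose at 5 dpf, including that of tnni1al. Of 38 probes of 17 genes named for fast fibres 3 did, against 4.23% of all probes. The median difference was 0.40 for the slow probes and 0.085 for the fast probes. The mean level of the slow probes was 0.55, 0.37 and 0.40 in the TBBPA samples and -0.098, -0.11 and 0.29 in the control samples. The fast probes averaged 0.40, 0.26 and 0.23 in the TBBPA samples and -0.056, 0.34 and 0.34 in the control samples. Control replicates 2 and 3 were thus below the TBBPA range on the slow probes and within it on the fast probes, and control replicate 1 was below it on both.

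Other muscle genes were read from the same fit at 5 dpf. Of 19 probes of other sarcomere and muscle genes, such as titin-associated and Z-disc proteins, 0 passed (median 0.079), and 5 were higher at an unadjusted p under 0.05. Of 21 probes of myogenic regulators and the neuromuscular junction 0 passed (median -0.015), with 3 higher and 1 lower at an unadjusted p under 0.05, where all probes had 11.8% higher and 10.6% lower. Of 52 probes of calcium handling and muscle metabolism genes 8 rose and 0 fell, against 4.23% of all probes higher and 2.84% lower. The median of the 52 was 0.012, with 30 differences above 0 and 22 below. At an unadjusted p under 0.05, 13 of them were higher and 6 lower. Among the 8 were atp2a2a, a calcium pump of the sarcoplasmic reticulum (0.78), and the calcium buffers pvalb4 (0.67) and pvalb3 (0.43). Of 3 probes of smooth muscle markers outside the members 0 passed, with 1 higher and 1 lower at an unadjusted p under 0.05, and the list of heart markers outside the members matched 0 probes.

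Markers of other tissues moved in the same comparison, where 4.23% of all probes were higher and 2.84% lower. Of 74 probes of skin and cornea epithelium 38 rose and 0 fell, and their mean level was 0.66, 0.84 and 0.65 in TBBPA samples and 0.21, 0.18 and 0.58 in control samples. Cartilage and bone markers rose on 14 of 27 probes and lens markers on 16 of 54, with 0 lower in either list. Cartilage and bone averaged 0.73, 0.84 and 0.72 in TBBPA samples and 0.52, 0.35 and 0.53 in control samples. Exocrine pancreas markers fell on 22 of 25 probes and averaged 0.55, 0.25 and -0.28 in TBBPA samples and 1.95, 1.13 and 0.76 in control samples. Photoreceptor markers were higher on 10 and lower on 20 of 67 probes, and liver and plasma markers lower on 5 of 18. Liver and plasma averaged -0.26, -0.19 and -0.018 in TBBPA samples and 0.95, -0.047 and 0.013 in control samples, so control replicate 1 stood apart. The part of these tissues in the muscle values was not tested.

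At 8 dpf, after 3 days in clean water, few members differed between the treatments. At this age 0 of the 92 probes were higher and 2 lower in TBBPA eyes, where 0.696% of all probes were higher and 0.696% lower. At an unadjusted p under 0.05, 1 was higher and 14 lower, against 5.16% of all probes higher and 6.56% lower. The median difference was -0.098, and over all probes 0.0041. Both probes that fell belonged to myhz1.1, a fast skeletal myosin heavy chain. Probe A_15_P655096 stood at -0.50, -0.75 and -0.37 in TBBPA eyes and 0.094, 0.082 and 0.24 in control eyes. All TBBPA samples were lower and the TBBPA sample was brighter on 0 of 4 arrays, with a difference of -0.68 ± 0.14 (SE, adjusted p = 0.0248, limma). Probe A_15_P542682 stood at -0.67, -0.32 and -0.42 in TBBPA eyes and -0.15, -0.087 and 0.35 in control eyes and differed by -0.56 (adjusted p = 0.0274, limma). Without TBBPA replicate 1 or 3 or any 1 of the 3 control samples at 8 dpf, 0 members passed.

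For 11 of the 92 probes all TBBPA samples at 8 dpf lay below all control samples, against 2.69% of all probes, and 7 of the 11 were fast skeletal myosin heavy chains. TBBPA replicates 2 and 3 and control replicate 3 were joined to the other 8 dpf samples only by arrays that link the ages. This count therefore does not rest on independent plates. All 12 fast heavy chain probes had a difference below 0, with a median of -0.35. The slow heavy chains differed by -0.53 to -0.21 over 4 probes with overlapping groups, and 11 of the 14 actin probes were below 0 with a median of -0.071. The 2 acta1a probes that rose at 5 dpf differed by 0.30 and 0.32 at 8 dpf and did not pass. Of the muscle genes outside the members 0 passed. The 52 calcium handling and metabolism probes had a median of -0.20, and 16 were lower at an unadjusted p under 0.05, against 2 lower and 1 higher of the 19 other sarcomere and muscle probes and 1 lower of the 21 myogenic and neuromuscular junction probes, where all probes had 5.16% higher and 6.56% lower. Of 67 photoreceptor probes 12 were higher and 3 lower at 8 dpf by adjusted p, against 0.696% of all probes in each direction. At an unadjusted p under 0.05, 14 of 74 skin and cornea probes were lower and 1 higher. For lens 18 of 54 probes were higher and 0 lower at that threshold, and for cartilage and bone 3 of 27 higher and 0 lower. Liver and plasma had 3 of 18 lower and 0 higher, and exocrine pancreas 0 of 25 in either direction.

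**Figure D3:**
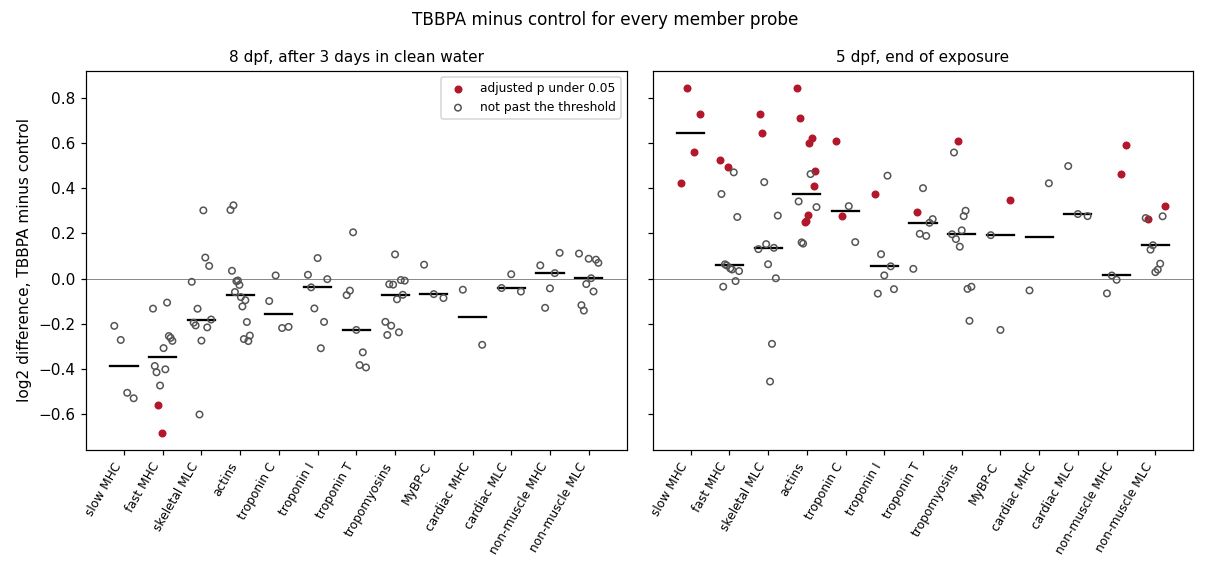
Each point is 1 member probe, with its log2 difference between TBBPA and control eyes at 8 dpf (left) and at 5 dpf (right), filled where the adjusted p was under 0.05, and the line is the median of the role. At 5 dpf the filled points lay above 0 (27 probes) and at 8 dpf below 0 (2 probes).

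The change of the TBBPA effect between the ages was tested directly. Of the 92 probes 1 passed, the myhz1.1 probe A_15_P655096, which was lower, against 0.039% of all probes lower and 0.0223% higher. Its effect was -0.68 at 8 dpf and 0.49 at 5 dpf, a difference of -1.17 ± 0.18 (SE, adjusted p = 0.0237, limma). The call was lost when any 1 of the 8 dpf samples, TBBPA replicate 1 or 2 at 5 dpf, or control replicate 1 or 2 at 5 dpf was left out, and 12 members passed without control replicate 3 at 5 dpf. The difference of effects was below 0 for 78 of the 92 probes, with a median of -0.36 and of 0.0067 over all probes. Over all 17950 probes it was below 0 for 8608 and above 0 for 9342. It was also below 0 for 73 of 74 skin and cornea probes (median -0.45), 44 of 52 calcium handling and metabolism probes and 24 of 27 cartilage and bone probes. Lens was closer to the share of all probes, with 32 of 54 below 0 (median -0.074). For 25 of 25 exocrine pancreas, 14 of 18 liver and plasma and 48 of 67 photoreceptor probes it was above 0. Among the 92 probes, the smyhc3 probe A_15_P635961 had the largest such difference, -1.26 ± 0.23 (SE), and did not pass (adjusted p = 0.0645, limma).

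The change with age in TBBPA eyes minus that in control eyes is the difference of effects tested above. In TBBPA eyes 64 of the 92 probes were lower at 8 dpf and 3 higher, against 22.4% and 20.9% of all probes, and 36 were lower past the fold threshold, against 6.19%. In control eyes 30 were lower and 5 higher, against 18.2% and 14% of all probes, with 7 lower and 1 higher past the fold threshold, against 4.58% and 2.22%. The median change was -0.62 in TBBPA eyes and -0.29 in control eyes. All 8 dpf samples lay below all 5 dpf samples for 68 probes in TBBPA eyes and 23 in control eyes, against 24.1% and 19.7% of all probes. With plates as the unit, 55 probes were lower in TBBPA eyes and 24 in control eyes, against 17% and 13.9% of all probes. The plate levels of the 2 ages are joined only by the arrays that link the ages, and the plates share the errors of those arrays. Neither these counts nor those of samples that did not overlap therefore rest on independent plates.

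The counts with age depended on single samples. Replicate 1 of each 5 dpf group lay on 4 arrays and every other sample on 2. Each of the 4 arrays that linked the ages carried replicate 1 of a 5 dpf group. Without TBBPA 5 dpf replicate 1, 19 members passed in TBBPA eyes and 12 in control eyes. In control eyes, 19 passed without control 5 dpf replicate 1, 17 without control 8 dpf replicate 1 and 11 without control 8 dpf replicate 2. With every array scaled to the same spread, 47 members were lower in TBBPA eyes and 0 passed in control eyes, where 1290 of all probes still did. The SD of the ratios was 0.45 to 0.60 on the arrays that linked the ages and 0.23 to 0.34 on the others.

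**Figure D4:**
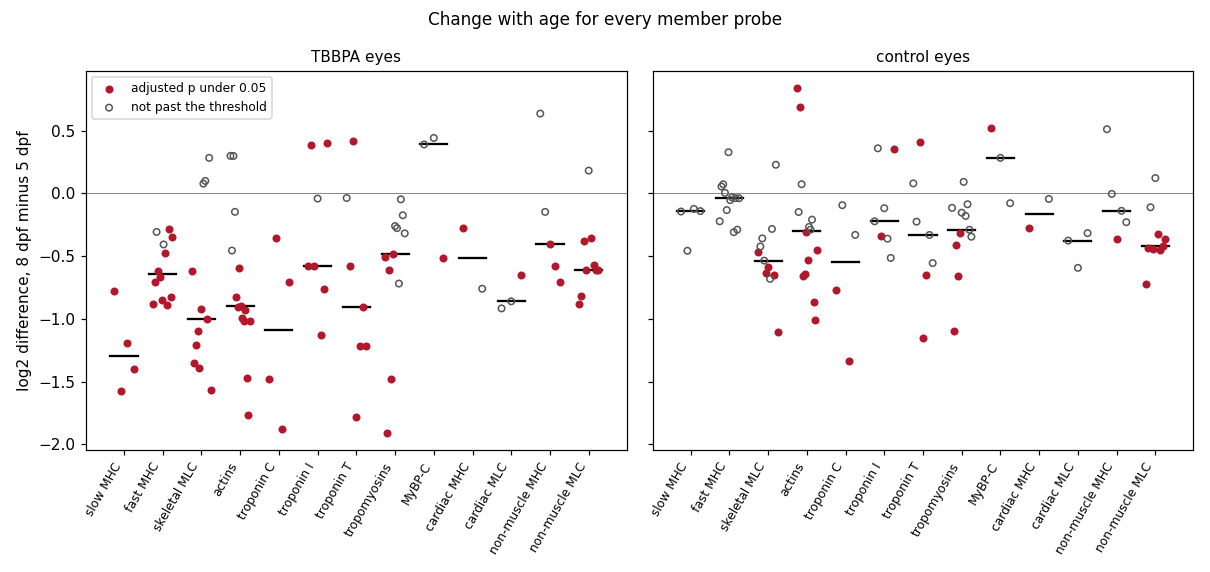
Each point is 1 member probe, with its log2 difference between 8 and 5 dpf in TBBPA eyes (left) and control eyes (right), filled where the adjusted p was under 0.05, and the line is the median of the role. The slow and fast heavy chains had 14 filled points in TBBPA eyes and 0 in control eyes.

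In TBBPA eyes the 4 largest falls with age were of thin filament genes, tpm2, tnnc2, tnnt3b and actc1b, while in control eyes the falls of tpm2 (-1.10) and actc1b (-1.01) were of the same size as that of mylz3, a thick filament gene (-1.10). tpm2, a tropomyosin, stood at -0.99, -0.99 and -0.27 in TBBPA 8 dpf eyes and 1.04, 0.98 and 0.93 in TBBPA 5 dpf eyes, a difference of -1.90 ± 0.27 (SE, adjusted p = 8.63e-05, limma). In control eyes it stood at -0.88, -1.15 and 0.22 at 8 dpf and 0.31, -0.12 and 0.92 at 5 dpf, a difference of -1.10 ± 0.27 (SE, adjusted p = 0.00669, limma). The ages did not overlap in TBBPA eyes, whereas control 8 dpf replicate 3 lay above control 5 dpf replicate 2.

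tnnc2, the fast troponin C, stood at -0.89, -0.83 and -0.94 in TBBPA 8 dpf eyes and 1.18, 0.68 and 0.90 in TBBPA 5 dpf eyes on probe A_15_P193931 (-1.87, adjusted p = 2.63e-05, limma). In control eyes it stood at -0.68, -1.28 and -0.20 at 8 dpf and 0.16, 0.81 and 1.06 at 5 dpf (-1.33, adjusted p = 0.00061, limma). The ages did not overlap in either treatment. tnnt3b, the fast troponin T, differed by -1.78 in TBBPA eyes and -1.15 in control eyes on probe A_15_P102408, with -1.20, -0.77 and -0.34 in TBBPA 8 dpf eyes and 1.01, 0.90 and 0.88 in TBBPA 5 dpf eyes. Its control samples stood at -0.99, -1.39 and 0.32 at 8 dpf and 0.18, 0.61 and 0.80 at 5 dpf, where the estimate of replicate 3 at 8 dpf was far above the other 2. Control 8 dpf replicate 3 was joined to replicates 1 and 2 only through the arrays that link the ages. In its distance from them, plate and array error cannot be told apart, here and for the other genes.

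actc1b, the muscle actin with the largest fall, stood at -1.10, -0.87 and -0.50 in TBBPA 8 dpf eyes and 1.11, 0.68 and 1.05 in TBBPA 5 dpf eyes on probe A_15_P660221 (-1.76, adjusted p = 3.93e-06, limma). Control eyes stood at -0.79, -1.02 and -0.083 at 8 dpf and 0.075, 0.55 and 0.91 at 5 dpf (-1.01, adjusted p = 0.000663, limma). The fast essential light chain mylz3 fell in the same way on probe A_15_P664001. It differed by -1.56 in TBBPA eyes, at -0.93, -0.66 and -0.63 at 8 dpf and 1.05, 0.67 and 0.66 at 5 dpf, and by -1.10 in control eyes, at -0.57, -1.08 and -0.21 at 8 dpf and 0.16, 0.77 and 0.78 at 5 dpf. No 8 dpf sample of either gene reached a 5 dpf sample of its treatment, and control 8 dpf replicate 3 came closest, at -0.083 for actc1b and -0.21 for mylz3.

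tnnc1b fell by 1.48 in TBBPA eyes and by 0.77 in control eyes on probe A_15_P108824, and tpm3 fell by 1.48 in TBBPA eyes and by 0.66 in control eyes on probe A_15_P113180. For tnnc1b the samples stood at -0.60, -0.83 and -0.18 in TBBPA 8 dpf eyes and -0.55, -0.93 and -0.010 in control 8 dpf eyes. For tpm3 they stood at -0.66, -0.70 and -0.27 in TBBPA 8 dpf eyes and -0.57, -0.76 and 0.14 in control 8 dpf eyes. For both genes replicate 3 was the highest sample at 8 dpf in either treatment. The fast troponin I gene tnni2b.1 fell by 1.13 in TBBPA eyes and differed by -0.36 in control eyes without passing, at -0.55, -0.57 and -0.14 in TBBPA 8 dpf eyes and 0.54, 0.56 and 0.59 in TBBPA 5 dpf eyes. In control eyes it spread widely, at -0.51, -0.76 and 0.64 at 8 dpf and -0.039, -0.37 and 0.62 at 5 dpf.

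The myosin heavy chains of skeletal muscle passed with age in TBBPA eyes only, although the difference between the treatments passed for just the 1 myhz1.1 probe above. All 4 slow heavy chain probes were lower at 8 dpf in TBBPA eyes (-1.57 to -0.78), and 0 of 4 passed in control eyes (-0.46 to -0.12), also at an unadjusted p under 0.05, where 22.5% of all probes were lower and 20.7% higher. smyhc1 on probe A_15_P632491 stood at -0.64, -0.77 and -0.0043 in TBBPA 8 dpf eyes against the 5 dpf values above, a difference of -1.57 ± 0.24 (SE, adjusted p = 0.000189, limma), and at -0.58, -0.82 and 0.51 in control 8 dpf eyes. Of the fast heavy chains 10 of 12 probes fell in TBBPA eyes and 0 of 12 passed in control eyes, also unadjusted, with a median of -0.64 in TBBPA eyes and -0.039 in control eyes. The largest fall among them was of myhz1.2 on probe A_15_P445175 (-0.89 ± 0.22, SE, adjusted p = 0.00594, limma). It stood at -0.46, -0.18 and -0.27 in TBBPA 8 dpf eyes and 0.52, 0.82 and 0.11 in TBBPA 5 dpf eyes, while control eyes stood at -0.56, 0.050 and -0.16 at 8 dpf and 0.19, -0.33 and 0.27 at 5 dpf.

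By role, in TBBPA eyes 10 of 14 actin probes, 8 of 11 skeletal light chain probes, 4 of 4 troponin C probes, 4 of 7 troponin I probes, 5 of 7 troponin T probes and 5 of 11 tropomyosin probes were lower at 8 dpf. In control eyes these counts were 7, 5, 2, 1, 2 and 4 of the same totals. Over all probes 22.4% were lower in TBBPA eyes and 18.2% in control eyes, and troponin I, at 14.3% in control eyes, was near that share. Non-muscle and smooth muscle light chains fell on 8 of 9 probes in TBBPA eyes and 7 of 9 in control eyes. Of these myl12.1 fell most, by 0.88 in TBBPA eyes and by 0.72 in control eyes on probe A_15_P104340, at -0.36, -0.15 and -0.31 in TBBPA 8 dpf eyes, 0.38, 0.61 and 0.49 in TBBPA 5 dpf eyes, -0.73, -0.59 and 0.018 in control 8 dpf eyes and 0.32, 0.029 and 0.30 in control 5 dpf eyes. The non-muscle heavy chain myh9a fell by 0.71 in TBBPA eyes on probe A_15_P657086, at -0.19, -0.39 and 0.014 at 8 dpf, and differed by -0.23 in control eyes, at -0.41, -0.19 and -0.31 at 8 dpf, which did not pass. The smooth muscle heavy chain myh11a fell by 0.40 in TBBPA eyes and by 0.37 in control eyes.

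A few members went the other way with age. acta1a on probe A_15_P117794 stood at 0.36, 0.38 and 0.68 in TBBPA 8 dpf eyes and 0.13, -0.12 and 0.30 in TBBPA 5 dpf eyes, a difference of 0.30 that did not pass. In control eyes it stood at -0.40, 0.16 and 0.58 at 8 dpf and -0.86, -1.05 and -0.18 at 5 dpf, a rise of 0.84 ± 0.20 (SE, adjusted p = 0.00598, limma). Probe A_15_P662937 rose by 0.68 in control eyes, whereas the third acta1a probe, A_15_P628456, differed by -0.46 in TBBPA eyes and -0.15 in control eyes. Both acta1a probes that rose were lowest in control 5 dpf replicates 1 and 2, and no other actin probe passed upward. mybpc1, the slow form of myosin binding protein C, differed by 0.39 in TBBPA eyes and rose by 0.52 in control eyes (adjusted p = 0.037, limma). The troponin T gene tnnt2d rose by 0.41 in TBBPA eyes and by 0.41 in control eyes. The role of myosin binding proteins C was led in TBBPA eyes by mybpc2b, a fast form, at -0.51 on probe A_15_P756682, while its probe A_15_P734621 differed by 0.44.

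Among muscle genes outside the members, calcium handling and metabolism genes were lower on 35 of 52 probes in TBBPA eyes and 23 of 52 in control eyes, led by the parvalbumins pvalb4 (-2.44 in TBBPA eyes, -1.34 in control eyes) and pvalb1 (-2.14 in TBBPA eyes, -2.04 in control eyes). Of the other sarcomere and muscle genes 8 of 19 were lower and 2 higher in TBBPA eyes, and 2 lower and 4 higher in control eyes. For every list here the share over all probes was 22.4% lower and 20.9% higher in TBBPA eyes. In control eyes it was 18.2% lower and 14% higher, beside 10.5% and 21.1% of these 19 probes. The Z-disc gene actn2 rose by 0.74 in TBBPA eyes and by 0.78 in control eyes, while actn3a, its fast fibre relative, fell by 0.96 in TBBPA eyes and by 0.70 in control eyes. Of the markers of other tissues, skin and cornea were lower on 64 of 74 probes in TBBPA eyes and 41 in control eyes, cartilage and bone on 23 of 27 in TBBPA eyes and 22 in control eyes, and exocrine pancreas on 21 of 25 in TBBPA eyes and 25 in control eyes. Photoreceptor markers were lower on 30 of 67 probes and higher on 8 in TBBPA eyes, and lower on 38 and higher on 5 in control eyes. Liver and plasma markers were higher on 2 of 18 probes in TBBPA eyes, and lower on 11 and higher on 3 in control eyes. Lens markers were higher on 28 of 54 probes in TBBPA eyes and 32 in control eyes, and lower on 1 in each. The part of these tissues in the muscle values was not tested.

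Of 9 probes of 5 genes set together here as heart genes (vmhc, vmhcl, myl7, tnnt2a and tpm4a), 1 rose at 5 dpf, against 4.23% of all probes. This was the probe of tnnt2a, the cardiac troponin T, which stood at 0.49, 0.24 and 0.33 in TBBPA eyes and -0.18, 0.15 and 0.42 in control eyes, a difference of 0.30 ± 0.080 (SE, adjusted p = 0.037, limma). Control replicate 3 lay within the TBBPA range. The median difference over the 9 probes was 0.29, with 8 differences above 0 and 1 below. The actins actc1a and actc1b and the troponin T gene tnnt2d were not counted in this set. As given above, actc1a and actc1b each passed on 2 probes, and tnnt2d differed by 0.20 without passing.

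On 5 other probes of the 5 genes set together as heart genes, the samples within each 5 dpf group spread widely. myl7, the regulatory light chain of the heart and a common marker of heart muscle in zebrafish, stood on probe A_15_P171951 at 1.25, -0.49 and 0.69 in TBBPA 5 dpf eyes and -0.57, -0.046 and 1.22 in control 5 dpf eyes. TBBPA replicate 1 and control replicate 3 were high, and TBBPA replicate 2 and control replicate 1 were low. Probe A_15_P466750 of the same gene gave 1.29, -0.49 and 0.56 in TBBPA eyes and -0.51, 0.35 and 1.43 in control eyes, and probe A_15_P663976 gave 0.87, -0.13 and 0.063 in TBBPA eyes and -0.28, -0.075 and 0.78 in control eyes. The ventricular myosin gene vmhcl, now named myh7l in RefSeq, had 0.98, -0.41 and 0.56 in TBBPA eyes and -0.53, -0.11 and 1.00 in control eyes, and tpm4a, the tropomyosin that the zebrafish heart needs to beat, had 0.85, -0.30 and 0.61 in TBBPA eyes and -0.56, 0.17 and 1.16 in control eyes on probe A_15_P735176. All 5 probes shared this order of high and low samples.

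None of these 5 probes passed for treatment at either age. With age in TBBPA eyes, tnnt2a fell by 0.58 and myl7 fell by 0.65 on probe A_15_P663976 (adjusted p = 0.041, limma). Without passing, myl7 differed by -0.92 ± 0.36 (SE, adjusted p = 0.0546, limma) on probe A_15_P171951, at -0.17, -0.48 and -0.52 at 8 dpf, and vmhcl by -0.76 ± 0.31 (SE, adjusted p = 0.0571, limma), at -0.23, -0.46 and -0.59 at 8 dpf. In control 8 dpf eyes myl7 on this probe stood at -0.082, -0.13 and -0.67 and vmhcl at 0.33, 0.00017 and -0.54. The other ventricular gene, vmhc, was nearly flat at 5 dpf, at 0.11, 0.26 and 0.0094 in TBBPA eyes and 0.077, 0.090 and 0.37 in control eyes, and fell with age by 0.27 in TBBPA eyes and by 0.28 in control eyes.

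A second pattern belonged to control 5 dpf replicate 2. mylpfb, a regulatory light chain of fast fibres, stood at 0.11, -0.19 and -0.0081 in TBBPA 5 dpf eyes and 0.082, 1.45 and 0.17 in control 5 dpf eyes on probe A_15_P113115. On probe A_15_P674446 it stood at 0.019, -0.11 and -0.069 in TBBPA eyes and -0.044, 1.00 and 0.016 in control eyes. Control replicate 2 stood above every other 5 dpf sample on both probes. tpma stood at 0.15, 0.13 and -0.081 in TBBPA eyes and -0.18, 0.91 and 0.34 in control eyes on probe A_15_P382820. tnni2b.2, on probe A_15_P104996, stood at 0.42, 0.36 and 0.32 in TBBPA eyes and -0.079, 0.89 and 0.31 in control eyes. These fast fibre probes were high in that 1 plate, but not every fast probe was, with myhz1.2 at -0.33 there on probe A_15_P445175. In the same plate the slow heavy chains stood at -0.44 and -0.073 for smyhc1 and 0.18 and 0.051 for smyhc3. The mean of these slow probes was -0.25, -0.071 and 0.36 in control 5 dpf replicates 1 to 3. The probes named for these sample patterns were chosen after their values were seen.

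**Figure D5:**
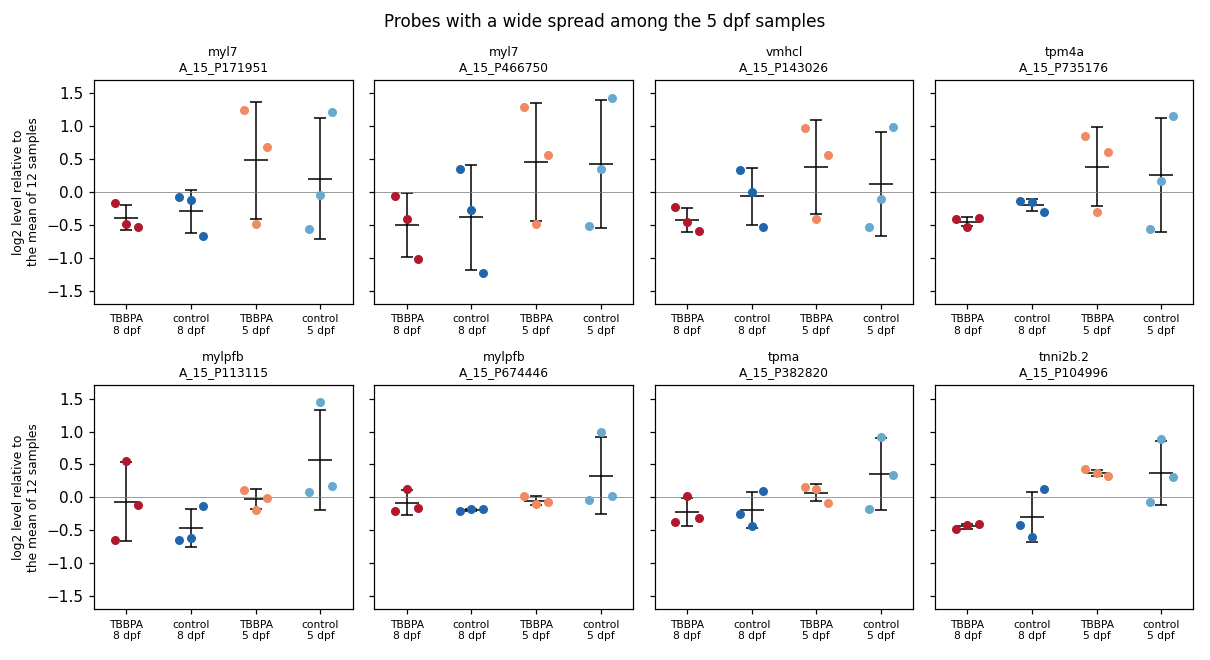
Points are the 3 samples of each group in the order of replicates 1 to 3, for 8 member probes, on the log2 level relative to the mean of the 12 samples, with the mean and SD as bars. In the upper row TBBPA 5 dpf replicate 1 and control 5 dpf replicate 3 stood highest, and in the lower row control 5 dpf replicate 2.

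Of the 45 genes 29 had several probes, and some of these disagreed. At 5 dpf 1 of 6 probes of myhz1.1 passed, and with age 1 of 3 probes of mylz3 (A_15_P263391) differed by 0.28 in TBBPA eyes and 0.23 in control eyes, where the other probes fell by 1.00 and 1.56 in TBBPA eyes. For tnni2a.2 probe A_15_P106575 rose by 0.39 with age in TBBPA eyes and probe A_15_P136981 fell by 0.58, and for tnni2b.2 probe A_15_P106920 rose by 0.40 and probe A_15_P104996 fell by 0.76. For myl6 probe A_15_P117641 fell by 0.61 and probe A_15_P179241 differed by 0.18, which did not pass. For mylpfa all 3 probes fell in TBBPA eyes (-1.39 to -0.92), and 2 of 3 in control eyes. For acta1b 4 of 5 probes fell with age in both treatments and the fifth, A_15_P117428, differed by -0.15 in TBBPA eyes and 0.072 in control eyes.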

How the data were processed

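The members, roles and gene lists were chosen with earlier results of these data known. Per the methods, the authors quantified the spots with GenePix software, corrected the background by normexp, normalized each array by loess and used limma 3.34.4. The deposited values are log2 ratios for 17950 probes on 14 arrays. Base and direction (Cy5 over Cy3) were taken from the methods and dye labels. Reversing the sign of 1 array at a time increased the residual variation of the model by 1.02 to 1.88 times in each of the 14 cases, while a reversal of all arrays together was not tested.

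A coefficient per group was fitted to the ratios as deposited in limma 3.58.1 (R 4.3.3), with no dye effect or replicate block. Two-sided tests were moderated by empirical Bayes, and p was adjusted over all probes (Benjamini-Hochberg), with 11 residual degrees of freedom. The fit was also run on simulated data, with the only requirement that the estimates follow the planted differences. No requirement was set on false calls, so that run does not test the p. Sample levels are least-squares estimates centred on the 12 samples, so group differences of the fit need not equal differences of their means. Samples joined by the same arrays share errors.

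Of the 92 member probes 80 were matched by accession to RefSeq (assembly GRCz12tu, names only), which changed the symbol of 6. Symbols are those of the probe annotation. Named with values per sample are, in each comparison, the 8 genes of largest absolute difference that passed, and the probe of largest change in each role. Genes whose probes disagreed are named with the differences of their probes. Precision is limited by having 14 arrays and 12 samples. Slides and scan dates were not used here. Alternatives were a dye effect, plates as the unit, the RNA sample as a random effect, arrays of 1 age alone, scaled arrays, a replicate block, probes averaged per gene, the study's thresholds, updated symbols and each sample left out. Leaving out the 14 probes of non-muscle and smooth muscle myosins was added after the data were seen.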

Additional observations from a re-analysis of the deposited data

Results flagged for a closer look

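The TBBPA effect on the myhz1.1 probe A_15_P655096 differed between the ages by -1.17 on the log2 scale in the test of that difference (adjusted p = 0.0237, limma), with an effect of -0.68 at 8 dpf and 0.49 at 5 dpf. The other 5 myhz1.1 probes had differences of effects of -0.62 to -0.35 and did not pass.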

How the results depend on the processing

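The counts of member probes that passed were 27 (TBBPA minus control at 5 dpf), 2 (at 8 dpf), 1 (difference of these effects), 35 (8 minus 5 dpf in control eyes) and 67 (in TBBPA eyes). With plates as the unit, 0, 0 and 0 passed in the first 3 comparisons. With a dye effect, 5 passed at 8 dpf and 4 for the difference of effects, and with a dye effect and a random sample effect 11 at 5 dpf and 0 for the difference of effects. On direct arrays alone 11 passed at 5 dpf and 0 at 8 dpf. With scaled arrays 0 passed for age in control eyes, and the members' median there was -0.054. The reason for this loss was not tested. Averaged per gene, 15, 1, 0, 18 and 33 of 45 genes passed, and with the study's thresholds 2, 0, 1, 8 and 36 probes. Leaving out each sample gave 0 to 38 at 5 dpf, 0 to 3 at 8 dpf, 0 to 12 for the difference of effects, 11 to 42 for age in control eyes and 19 to 72 in TBBPA eyes. Correlations of same-numbered samples were -0.46 to 0.68. Samples on the same array share errors, so these correlations cannot show whether replicate numbers pair the samples. With a replicate block 29, 2, 6, 28 and 61 passed. Without the non-muscle and smooth muscle myosins 23, 2, 1, 27 and 56 passed, and by updated symbol 31, 2, 1, 35 and 71. Of 536 values of the probes named for a call under the alternatives, 448 kept their call, 88 lost it and 0 changed direction. These probes were chosen for their large differences and the repeats share arrays, so this count cannot test the calls. Among the 67 members that passed with age in TBBPA eyes, 1 changed direction without TBBPA 5 dpf replicate 1. No median of the members changed sign in 87 repeats, and 3 moved by more than 0.16, the SD of the member mean among samples of a group. Absolute signal was not used here, so dim probes could not be set apart.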
